A study of Mus musculus with 8 samples.

Results

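The antioxidant enzymes described here are 10 genes, taken by symbol from the 52636 genes of the expression table: the superoxide dismutases Sod1, Sod2 and Sod3, catalase (Cat), the glutathione peroxidases Gpx1, Gpx3 and Gpx4, the peroxiredoxins Prdx1 and Prdx5, and thioredoxin (Txn1). All 10 symbols were found. RNA sequencing was performed on satellite cells (SCs), the resident stem cells of skeletal muscle, from control mice and exercise mice, with 4 libraries in each group. The mice were male C57B/6J, 10 weeks old when divided into groups, and control mice were sedentary, while exercise mice ran on a treadmill for 4 weeks, on 4 days of each week, for 30 min a day at 12 m/min. The groups carried no transgene, mutation or drug treatment in the labels. Each library was made from about 800 SCs, sorted from tibialis anterior muscle as cells positive for α7-integrin and CD34 that lacked CD31, CD45, Sca1 and CD11b, with a kit made for single-cell amounts of polyA RNA. The labels number the libraries without naming mice, and the study gives mice as the unit of its RNA sequencing. The p-values measure the spread between these 8 libraries.

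Superoxide, which leaks from the mitochondrial respiratory chain, is turned into hydrogen peroxide by superoxide dismutases in the cytosol and nucleus (Sod1), the mitochondrial matrix (Sod2) and outside the cell (Sod3). Hydrogen peroxide is then removed by catalase in peroxisomes, by glutathione peroxidases, which draw on glutathione, and by peroxiredoxins, which are reduced again by thioredoxin. Quiescent SCs rely little on mitochondrial respiration, and the redox state is known to bear on whether muscle stem cells stay quiescent. The comparison of control with exercise SCs asks which of these enzymes' transcripts differed after training.

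The promoters of Sod1, Prdx1 and Txn1 are shown because these held a motif searched for and because the genes differ in outcome: Sod1 was listed at 0 in every exercise library, while Prdx1 and Txn1 were read in all 8 libraries and were not called. They are the bases directly before each gene's start in the expression table, from the RefSeq promoter windows of GRCm38.p6, printed 5′ to 3′ along the gene. Capitals mark the antioxidant response element core TGACNNNGC, the site that NRF2 (Nfe2l2) binds, and the TATA box TATAAA, each searched on both strands.
Sod1, chr16:90220512-90220741, plus strand: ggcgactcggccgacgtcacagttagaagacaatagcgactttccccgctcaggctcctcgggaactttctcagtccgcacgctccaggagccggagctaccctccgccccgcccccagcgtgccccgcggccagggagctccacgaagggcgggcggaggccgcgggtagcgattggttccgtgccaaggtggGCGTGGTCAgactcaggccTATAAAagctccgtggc
Prdx1, chr4:116685349-116685543, plus strand: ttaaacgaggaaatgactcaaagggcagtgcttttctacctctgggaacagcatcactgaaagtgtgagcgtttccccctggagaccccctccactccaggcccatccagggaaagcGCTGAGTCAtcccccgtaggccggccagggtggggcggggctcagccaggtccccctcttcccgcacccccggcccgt
Txn1, chr4:57956412-57956661, minus strand: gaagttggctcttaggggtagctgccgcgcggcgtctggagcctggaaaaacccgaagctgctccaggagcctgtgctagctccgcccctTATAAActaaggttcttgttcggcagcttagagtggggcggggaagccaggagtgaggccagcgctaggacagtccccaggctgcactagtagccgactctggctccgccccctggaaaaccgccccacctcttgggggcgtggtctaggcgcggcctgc
In Sod1 and Prdx1 the response element core lay on the reverse strand, so its capitals read as the reverse complement. Of the 10 genes 9 had an entry, with 12 windows from 250 bases before to 50 bases after a start. The response element core was found in 2 of these 12 windows (Sod1 and Prdx1) and in 12.4% of all 32851 windows. TATAAA was found in 3 of the 12 (Sod1, Prdx1 and Txn1; in Prdx1 beyond the stretch shown) and in 13.6% of all windows. A match describes letters, not binding.

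Reads assigned to genes numbered 2339966 to 3013354 per control library and 1011737 to 1200221 per exercise library, and 5169 to 7307 genes had a read in control libraries against 2348 to 3289 in exercise libraries. Mitochondrial transcripts took 2.09% to 15.3% of the reads in control libraries, 7.85% and 7.56% in exercise 1 and 2, and 50.2% and 68.7% in exercise 3 and 4. Exercise 1 and 2 differed far less than any other pair within a group (chi-square per degree of freedom 3.86, against 82.6 to 711). For the 345 genes that control 3 lacked but control 1 held at 50 reads or more, the median share of reads in control 4 was 0.281 of that in control 1, and for 658 genes in the opposite position it was 0.714 of that in control 3. For exercise 3 these values were 0.299 of exercise 1 (139 genes) and 0.677 of exercise 4 (142 genes). Calls of the antioxidant enzyme genes are therefore also given with exercise 1 and 2 averaged, and after removing control 4 and exercise 3 as well. Of 11 SC markers, 7 had a read (summed level 58.6 to 76.6 FPKM in control and 67.1 to 124 FPKM in exercise libraries), and the defining markers Pax7, Itga7, Cdh15 and Calcr were at 0 in all 8. Myofibre transcripts (10 of 10 with a read) summed to 27614 to 61471 FPKM in control and 16250 to 49083 FPKM in exercise libraries, and those of fibro-adipogenic progenitors (6 of 6) to 1405 to 2217 and 1485 to 2218 FPKM. Endothelial markers (2 of 6, with Pecam1 and Cdh5 at 0) summed to 0.0925 to 2994 and 4.42 to 26.2 FPKM, smooth muscle and pericyte markers (3 of 6, with Tagln and Cnn1 at 0) to 2.88 to 46.1 and 5.72 to 89.3 FPKM, and erythroid markers (4 of 6) to 0 to 119 and 0 to 1.56 FPKM. All 6 macrophage markers were at 0. Below, control SCs and exercise SCs stand for the libraries of each group as sorted, and the part of these cell types in the results was not tested.

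In the main fit Sod1 and Prdx5 were called lower in exercise SCs, and no antioxidant enzyme gene was called higher. Each of these calls was kept in only 1 of the 8 fits that left out a single library. An exact permutation test gave p = 0.143 for both. Levels are in FPKM (fragments per kilobase of gene scaled to library size, as deposited), and changes are log2 fold changes of exercise against control on the log2(FPKM + 1) scale, which understates the change of low genes. A gene was called at an adjusted p under 0.05 in a limma fit with Benjamini-Hochberg adjustment over 4328 genes, those whose mean over the 8 libraries reached 1 FPKM. Of the 10 genes, 9 were tested (Sod3 was below the minimum level), 2 were called lower and 0 higher. Over all genes tested, 26.8% were called lower and 8.78% higher, so the count among the antioxidant enzymes was near that background. At an unadjusted limma p under 0.05, 3 were lower (Sod1, Sod2 and Prdx5) and 1 was higher (Gpx1), against 1631 lower and 514 higher of the 4328 genes. A voom fit on the recovered reads called 0 of the 9 (3 at an unadjusted p under 0.05), against 1242 of the 4328 (1922 unadjusted). The median log2 fold change was -1.83 over the 9 genes, of which 6 were lower and 3 higher, and -1.42 over all genes tested. This order was not stable, since the median over the antioxidant enzymes was the less negative one without exercise 1 (-0.40, against -1.38 over all genes), exercise 2 (-0.27 against -1.39) or control 1 (-0.89 against -1.39). The same held with exercise 1 and 2 averaged (-0.33 against -1.37), with voom (-1.52 against -1.68), and with a filter of 1 FPKM in 4 libraries (-0.11 against -0.80), which removed Sod1, Cat and Prdx5. In bulk libraries, fewer cells of a type and less RNA per cell cannot be told apart.

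**Figure D1:**
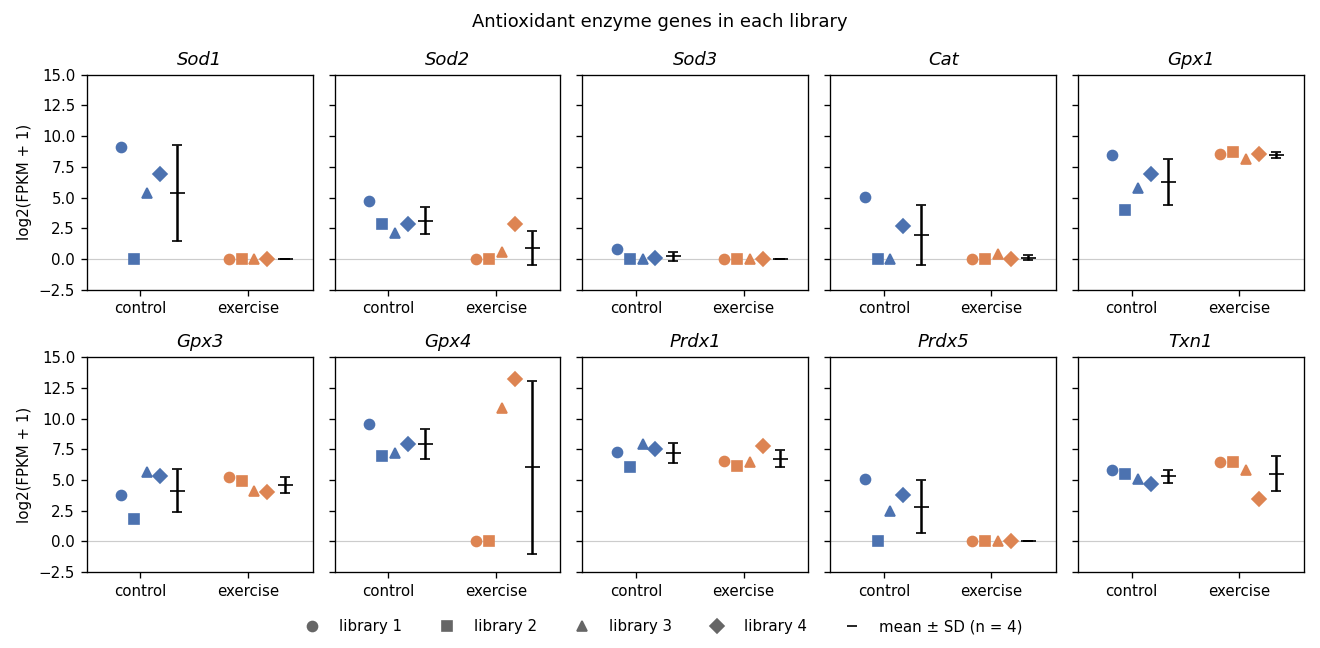
Level of each antioxidant enzyme gene in each library, as log2(FPKM + 1) on the vertical axis, for 4 control (blue) and 4 exercise (orange) libraries, with marker shapes for the library number and black bars for the mean ± SD (n = 4). Sod1, Sod3 and Prdx5 lie at 0 in all 4 exercise libraries, Gpx1 lies high in all 4, and Gpx4 splits into 2 libraries at 0 and 2 above every control library.

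Sod1 (ENSMUSG00000022982, chr16:90220742-90226322, plus strand) encodes the copper-zinc dismutase of the cytosol. It measured 568, 0, 39.3 and 121 FPKM in control 1 to 4, from 842, 0, 99 and 312 reads, and 0 FPKM in all 4 exercise libraries. The groups met at 0, since control 2 also held no Sod1 read. The mean was 182 ± 262 FPKM (SD, n = 4) in control SCs and 0 in exercise SCs. With 3 reads allowed in each exercise library, which covers counting error only, Sod1 was at least 28.0-fold lower in exercise SCs, or at least 8.23-fold lower without control 1 and at least 55.3-fold lower without exercise 4, where 3 reads amount to 16.1 FPKM. The fitted log2 fold change was -5.35 ± 1.63 (SE; limma, adjusted p = 0.0343), a value that depends on the pseudocount and is no bound. An exact two-sided permutation test over the 70 assignments of libraries gave p = 0.143, where 0.0286 is the smallest value possible. The call was kept without control 2 (limma adjusted p = 0.00328) but lost without control 1 (0.0566), control 3 (0.0710), control 4 (0.0952) or exercise 1 to 4 (0.0766, 0.0763, 0.0850 and 0.0655). It was also lost with exercise 1 and 2 averaged (limma adjusted p = 0.0768), and with control 4 and exercise 3 left out as well (0.471). The last setting called 0 of the 4499 genes it tested.

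Sod2 (ENSMUSG00000006818, chr17:13007839-13018119, plus strand), the manganese dismutase of mitochondria, was read in all 4 control libraries, at 25.1, 6.15, 3.22 and 6.17 FPKM. In exercise 1 to 4 it measured 0, 0, 0.472 and 6.35 FPKM, the last from 7 reads. On the FPKM scale exercise 1 to 3 lay below every control library, while exercise 4 lay within the control range. In exercise 4 the library size used for FPKM was 0.249 of the read total, which raises every value there. In RPM (reads per 1000000 reads) Sod2 took 94.0, 27.0, 15.9 and 33.7 in control 1 to 4 and 0, 0, 1.67 and 6.06 in exercise 1 to 4, so there the groups did not overlap. As a share of reads outside the mitochondrial genome, exercise 4 (19.3 RPM) again lay just above the lowest control library (18.8 RPM). The means were 10.2 ± 10.05 and 1.71 ± 3.11 FPKM (SD, n = 4), with a log2 fold change of -2.26 ± 0.88 that did not pass the threshold (limma, adjusted p = 0.0666; exact permutation p = 0.114). Without exercise 4, in which mitochondrial transcripts took 68.7% of the reads, it was called lower (-2.93, limma adjusted p = 0.0148). With all 8 libraries it was also called lower at equal FPKM sums (-3.66, limma adjusted p = 0.0115), at equal sums outside the mitochondrial genome (-3.29, 0.0317) and with a pseudocount of 0.1 (-4.11, 0.0457). It was not called in the other 14 settings, with -0.94 under quantile normalization (limma adjusted p = 0.426) and -1.97 with exercise 1 and 2 averaged (0.157). Sod3 (ENSMUSG00000072941, chr5:52363791-52371418, plus strand), the secreted dismutase, was at the edge of detection, with 6 reads in control 1 (0.700 FPKM), 1 read in control 4 (0.0671 FPKM) and none in the other 6 libraries. No fold is given for it, because 3 reads in each exercise library would average 1.12 FPKM, above its control mean of 0.192 FPKM (exact permutation p = 0.429).

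Cat (ENSMUSG00000027187, chr2:103453849-103485160, minus strand), which splits hydrogen peroxide into water and oxygen, was read in only 2 control libraries, at 32.0 FPKM in control 1 and 5.57 FPKM in control 4. Among the exercise libraries it was at 0 except for 1 read in exercise 3 (0.345 FPKM). The control mean of 9.40 ± 15.3 FPKM (SD, n = 4) was 109 times the exercise mean of 0.0863 ± 0.173 FPKM, with a 95% counting interval of 19.6 to 4303 on that ratio from the single read. Without control 1 the ratio was 21.5, with an interval of 3.86 to 850. The spread between control libraries was as large as the level itself, and the log2 fold change of -1.83 ± 1.05 was not called (limma, adjusted p = 0.169; exact permutation p = 0.429).

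None of the 3 glutathione peroxidases was called. Gpx1 (ENSMUSG00000063856, chr9:108338903-108340343, plus strand), the main cytosolic selenoenzyme of the family, measured 353, 14.96, 54.2 and 119 FPKM in control 1 to 4. In exercise 1 to 4 it measured 362, 409, 284 and 380 FPKM. On this scale all exercise libraries lay above control 2, 3 and 4, and control 1 fell inside the exercise range. The order depended on the scale, since Gpx1 took 499, 24.8, 101 and 244 RPM in control 1 to 4 and 825, 929, 378 and 137 RPM in exercise 1 to 4, where exercise 4 lay below control 1 and 4. As a share of reads outside the mitochondrial genome, Gpx1 took 510, 27.9, 120 and 277 RPM in control 1 to 4. In exercise 1 to 4 it took 895, 1005, 760 and 436 RPM there, and exercise 4 lay below control 1 only. The means were 135 ± 152 and 359 ± 53.4 FPKM (SD, n = 4), a ratio of 2.65, or 5.73 without control 1. The log2 fold change was 2.19 ± 0.91, with a 95% interval of 0.16 to 4.23, and was not called (limma, adjusted p = 0.0808; exact permutation p = 0.0571). Without control 1 it was called higher (2.92, limma adjusted p = 0.0142), and in the other 17 settings it was not, with the log2 fold change at 1.43 without control 2 (limma adjusted p = 0.160) and 1.497 with equal FPKM sums (0.277). Among nuclear genes with a read, Gpx1 ranked 104 to 163 in the exercise libraries, of 2320 to 3261 genes, and 171 to 1196 in the control libraries, of 5154 to 7285.

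Gpx4 (ENSMUSG00000075706, chr10:80047166-80056439, plus strand), the peroxidase that reduces lipid hydroperoxides in membranes and guards against ferroptosis, had the highest mean and the largest SD in FPKM in both groups. It measured 781, 121, 148 and 248 FPKM in control 1 to 4. In exercise 1 to 4 it measured 0, 0, 1878 and 9744 FPKM, from 0, 0, 3590 and 4841 reads. Exercise 1 and 2 lay below every control library and exercise 3 and 4 above every one. The group difference had no single direction, as the exercise mean in FPKM was 8.95 times the control mean (2905 ± 4644 against 324 ± 309, SD, n = 4) while the log2 fold change was -1.90 ± 2.84 (limma, adjusted p = 0.591; exact permutation p = 0.543). The ratio of means rested on single libraries and on the scale, at 1.93 without exercise 4, 16.9 without control 1, and 2.87 in RPM. With exercise 1 and 2 averaged the log2 fold change was 0.11, as it was without either of them. As a share of reads outside the mitochondrial genome, Gpx4 took 1348, 270, 390 and 693 RPM in control 1 to 4, and 0, 0, 6009 and 13372 in exercise 1 to 4, so the same 2 libraries remained highest. It ranked 26 and 15 among the nuclear genes of exercise 3 and 4. The libraries without Gpx4 were those with 7.85% and 7.56% mitochondrial reads, and those with the most Gpx4 had 50.2% and 68.7%. In control 1 to 4 the mitochondrial share was 2.09%, 11.2%, 15.3% and 11.9%, and there the library with the lowest share (control 1) held the most Gpx4. The part of the mitochondrial share in this result was not tested.

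Gpx3 (ENSMUSG00000018339, chr11:54902453-54910377, plus strand), the secreted plasma peroxidase, measured 12.7, 2.52, 49.3 and 40.0 FPKM in control 1 to 4 and 37.9, 30.1, 15.9 and 15.3 FPKM in exercise 1 to 4. All exercise values lay within the control range. The means of 26.1 ± 22.1 and 24.8 ± 11.1 FPKM (SD, n = 4) differed by less than the spread between libraries. The log2 fold change was 0.44, with a 95% interval of -1.66 to 2.53 (limma, adjusted p = 0.715; exact permutation p = 0.771), which holds both a fall and a rise.

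Prdx1 (ENSMUSG00000028691, chr4:116685544-116700822, plus strand), the abundant cytosolic peroxiredoxin, had the smallest ratio of highest to lowest FPKM over the 8 libraries (3.60) among the 4 genes read in every one (Gpx1, Gpx3, Prdx1 and Txn1). It measured 152, 67.9, 245 and 186 FPKM in control 1 to 4 and 92.8, 71.9, 86.8 and 223 FPKM in exercise 1 to 4. The ranges overlapped almost fully. The means were 163 ± 73.9 and 119 ± 70.4 FPKM (SD, n = 4), with a log2 fold change of -0.46 and a 95% interval of -1.99 to 1.07 (limma, adjusted p = 0.585; exact permutation p = 0.429).

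Prdx5 (ENSMUSG00000024953, chr19:6906697-6910106, minus strand), a peroxiredoxin of mitochondria, peroxisomes and cytosol, followed the pattern of Sod1. It measured 32.4, 0, 4.67 and 12.9 FPKM in control 1 to 4, from 159, 0, 39 and 110 reads, and 0 in all 4 exercise libraries. Control 2 again shared the value 0 with the exercise libraries. The control mean was 12.5 ± 14.3 FPKM (SD, n = 4), and with 3 reads allowed per exercise library Prdx5 was at least 6.37-fold lower in exercise SCs, at least 2.99-fold without control 1 and at least 12.6-fold without exercise 4. The fitted log2 fold change was -2.84 ± 0.98 (limma, adjusted p = 0.0475; exact permutation p = 0.143). The call was kept without control 2 (limma adjusted p = 0.0102) and lost without control 1 (0.0671), control 3 (0.0799), control 4 (0.124) or exercise 1 to 4 (0.0978, 0.0970, 0.109 and 0.0796). It was also lost with exercise 1 and 2 averaged (limma adjusted p = 0.0978), and with control 4 and exercise 3 left out as well (0.472), where 0 of the 4499 genes tested were called. The gene overlaps Trmt112 on the other strand, and as no source used here says that the counting used strand, reads of the 2 genes may not be told apart.

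Txn1 (ENSMUSG00000028367, chr4:57943373-57956411, minus strand), the cytosolic thioredoxin that returns oxidised peroxiredoxins to their working state, measured 56.8, 45.1, 33.2 and 25.1 FPKM in control 1 to 4. In exercise 1 to 4 it measured 85.9, 85.9, 54.9 and 9.90 FPKM, the last from 3 reads. Exercise 1 and 2 lay above every control library and exercise 4 below every one, where Gpx4 stood the other way in these 3 libraries, while exercise 3 lay inside the control range. The means were 40.0 ± 13.9 and 59.2 ± 35.9 FPKM (SD, n = 4), with a log2 fold change of 0.24 and a 95% interval of -1.61 to 2.09 (limma, adjusted p = 0.821; exact permutation p = 0.771). With exercise 1 and 2 averaged the log2 fold change was -0.063.

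**Figure D2:**
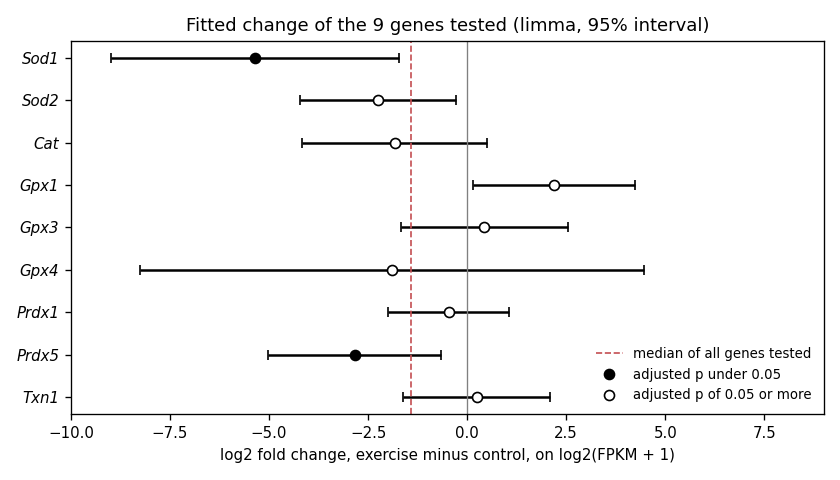
Fitted log2 fold change of exercise against control (horizontal axis, log2(FPKM + 1) scale) for the 9 genes tested, with 95% limma intervals, filled points for an adjusted p under 0.05 and a dashed line at the median of all genes tested (-1.42). The intervals of Sod1 and Prdx5 lie below 0 with filled points, that of Sod2 lies below 0 and that of Gpx1 above 0 with open points, and the other 5 span 0.

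No antioxidant enzyme gene separated the groups completely in FPKM. Every exercise value lay below every control value for 0 of the 9 genes tested, against 24% of all genes tested, and above for 0, against 7.62%. In RPM, a scale added after the values were seen, 1 of the 9 (Sod2) lay wholly below, against 25.9% of all genes tested, and 0 wholly above, against 5.06%. As a share of reads outside the mitochondrial genome these were again 0 and 0, against 23.4% and 7.16%. Sod1 and Prdx5 were 2 of the 9 tested genes listed at 0 in all exercise libraries, as were 30.4% of all genes tested, and Sod3, which was not tested, was a further one. The exercise libraries had fewer reads, so a count of 0 there allowed up to 0.000250% to 0.000297% of a library's reads, against 9.96e-05% to 0.000128% in control libraries. At this depth, absence could not be told from a low level.

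Most neighbours in the order of the levels overlapped. In control SCs the mean FPKM fell from Gpx4 (324) through Sod1 (182), Prdx1 (163), Gpx1 (135), Txn1 (40.0), Gpx3 (26.1), Prdx5 (12.5), Sod2 (10.2) and Cat (9.40) to Sod3 (0.192), and the ranges of all neighbours in this order overlapped. In exercise SCs it fell from Gpx4 (2905) through Gpx1 (359), Prdx1 (119), Txn1 (59.2), Gpx3 (24.8) and Sod2 (1.71) to Cat (0.0863), with Sod1, Sod3 and Prdx5 at 0. There, only Gpx1 over Prdx1 and Gpx3 over Sod2 were neighbours without overlap.

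The control libraries differed widely among themselves. Control 1 held the highest control value of 8 of the 10 genes (all but Gpx3 and Prdx1, which peaked in control 3), and it held that of 42.2% of the 4125 genes tested that had a control read. Control 2 held the highest value of 0 of the 10 genes, against 37.1% of those 4125, and had no read of Sod1, Sod3, Cat or Prdx5. The highest control value was 23.6 times the lowest for Gpx1, 19.6 times for Gpx3, 7.80 times for Sod2, 6.45 times for Gpx4, 3.60 times for Prdx1 and 2.27 times for Txn1. Among exercise libraries the same ratio, in FPKM, was 1.44 for Gpx1, 2.48 for Gpx3, 3.11 for Prdx1 and 8.68 for Txn1, while Gpx4 ran from 0 to 9744 FPKM. In RPM the exercise values ran from 137 to 929 for Gpx1, 6.92 to 109 for Gpx3, 170 to 446 for Prdx1 and 2.60 to 143 for Txn1. The FPKM ratios were larger in control libraries for Gpx1, Gpx3 and, slightly, Prdx1 and in exercise libraries for Txn1, and the differences were not tested.

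The antioxidant enzyme genes also showed the relation between libraries described above. The weighted sum takes 0.281 of the RPM in control 1 and 0.714 of those in control 3. Control 4 held 0.772 to 1.39 times this sum for the 9 genes with at least 10 reads there (median 0.992), for example 610.7 RPM of Gpx4 where the sum gave 607.4, and 810.3 of Prdx1 where it gave 816.6. In exercise 3, the sum of 0.299 of exercise 1 and 0.677 of exercise 4 was met within 0.718 to 1.202 times for 5 genes (median 1.05), with 2991 RPM of Gpx4 observed where the sum gave 2836. Gpx4 was itself among the 142 genes that set the weight of exercise 4, and Cat among the 345 that set that of control 1. Exercise 2 over exercise 1 was 1.13 in FPKM for Gpx1, 0.793 for Gpx3, 0.775 for Prdx1 and 0.999 for Txn1. The 4 libraries of a group may therefore hold fewer than 4 independent values of these genes, which the limma and permutation tests do not take into account.

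**Figure D3:**
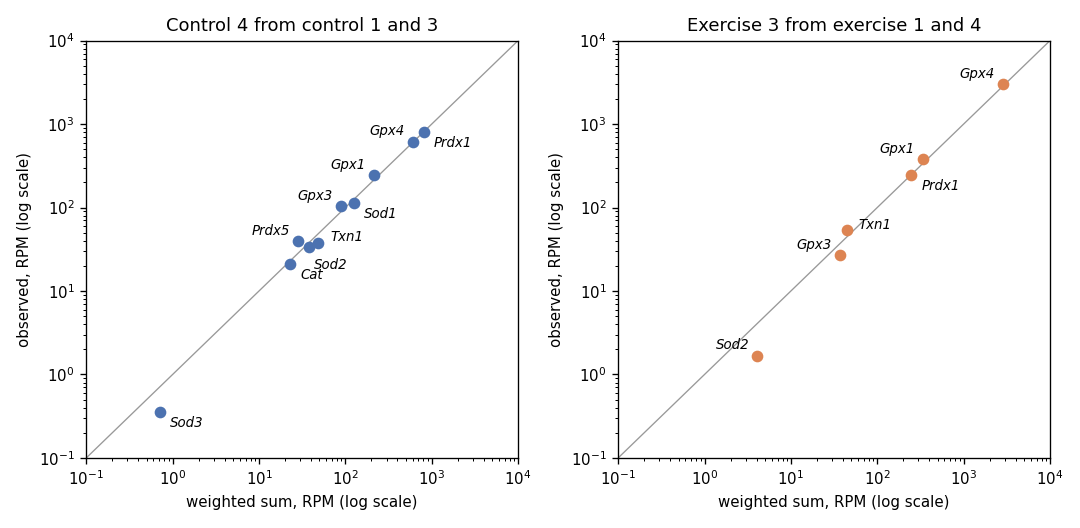
Observed RPM (reads per 1000000 reads) of the antioxidant enzyme genes in control 4 (left) and exercise 3 (right) on the vertical axis, against the weighted sum of 2 other libraries of the same group on the horizontal axis, both on log scales, for genes above 0 on both axes (not Cat in exercise 3, with 1 read and a sum of 0), with a line of equality. Genes with at least 10 reads lie within 0.772 to 1.39 (control 4) and 0.718 to 1.202 (exercise 3) times the line, and Sod3 and Sod2, with 1 and 2 reads, lie further off.

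Beyond the 10 genes, 73 other redox genes were examined in 7 lists, of which 55 had a read and 36 were tested. In exercise SCs 15 of the 36 were called lower, 3 higher and 18 neither, with a median log2 fold change of -1.96, where 26.8% of all genes tested were called lower and 8.78% higher, with a median of -1.42. Groups did not overlap for 16 of the 36 that were lower and 1 that was higher, against 24% and 7.62% of all genes tested. Among the 18 called genes, 5 were called whichever single library was left out (Prdx3, Prdx6, Glrx, Mgst3 and Rac1), and none changed direction in the alternatives run. With exercise 1 and 2 averaged, and control 4 and exercise 3 left out, limma called 0 of the 36, with 5 at an unadjusted p under 0.05. That setting also called 0 of the 4499 genes it tested, with 469 unadjusted, so the loss was not particular to the redox genes.

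Of the other peroxiredoxins and the thioredoxin system, 11 of 15 were tested, 5 were called lower and 0 higher. Prdx3, the peroxiredoxin of the mitochondrial matrix, measured 57.2, 95.9, 64.7 and 47.7 FPKM in control 1 to 4 and 0, 0.848, 0 and 0 FPKM in exercise 1 to 4. Its groups did not overlap, while those of Prdx1 and Prdx5 did (log2 fold change -5.80 ± 0.63, limma adjusted p = 0.000520, at most 0.00514 without any single library). Prdx6, which also reduces phospholipid hydroperoxides, measured 24.1, 1.90, 8.16 and 8.36 FPKM in control libraries and 0 in all exercise libraries (limma adjusted p = 0.0119). The glutaredoxins Glrx and Glrx3 (limma adjusted p = 0.0103 and 0.0367) were at 0 in every exercise library, and Txn2, the mitochondrial thioredoxin, fell by 1.58 on the log2 scale (limma adjusted p = 0.0359). The calls of Txn2 and Glrx3 were lost without control 4 or without any of exercise 1 to 3, and that of Glrx3 also without exercise 4 (limma adjusted p up to 0.101 for Txn2 and 0.0997 for Glrx3). Txnip, the inhibitor of thioredoxin and the highest gene of this list, had a log2 fold change of -2.42 that was not called (limma adjusted p = 0.0549).

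Of the other glutathione peroxidases, 2 of 5 were tested and 1 was called. Gpx7, a peroxidase of the endoplasmic reticulum, measured 789, 878, 500 and 452 FPKM in control 1 to 4 and 272, 195, 104 and 10.8 FPKM in exercise 1 to 4. Every exercise library lay below every control library (log2 fold change -2.81 ± 0.96, limma adjusted p = 0.0472). Its call was kept without exercise 4 and lost without any other single library (limma adjusted p up to 0.0989).

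Of the genes for glutathione synthesis, reduction and transfer, 10 of 16 were tested, 3 were called lower and 2 higher. Gstm5, a glutathione transferase, measured 90.4, 571, 344 and 269 FPKM in control 1 to 4 and 0, 0, 15.5 and 62.4 FPKM in exercise 1 to 4 (log2 fold change -5.54 ± 1.38, limma adjusted p = 0.0175). Mgst3, a membrane-bound transferase, measured 146, 49.7, 26.6 and 44.8 FPKM in control libraries and 2.18, 1.14, 0 and 0 FPKM in exercise libraries (log2 fold change -5.10 ± 0.77, limma adjusted p = 0.00214). Gclm, the modifier subunit of the enzyme that starts glutathione synthesis, was at 0.693 to 6.23 FPKM in control libraries and 0 in exercise libraries (limma adjusted p = 0.0398). The call of Gstm5 was lost without control 4, exercise 1 or exercise 2 (limma adjusted p up to 0.0536), and that of Gclm without control 4 or any one exercise library (up to 0.124). The 2 called higher were named after their values were seen, and both overlapped between groups. Gsr, which reduces oxidised glutathione, was at 0 in all control libraries and at 37.6, 43.0, 24.6 and 0 FPKM in exercise 1 to 4 (limma adjusted p = 0.0327), and Gstm1 was at 1.04 to 24.6 FPKM in control and 7.07 to 109 FPKM in exercise libraries (0.0430). Both calls were lost without control 2, 3 or 4 or exercise 1, 2 or 3 (limma adjusted p up to 0.0886 for Gsr and 0.106 for Gstm1). Gstm genes are close copies of each other, so how reads were divided among them is uncertain.

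Of the NRF2 axis and its target enzymes, 4 of 9 were tested, 2 were called lower and 0 higher. Sqstm1 (p62), an adaptor that withdraws KEAP1 from NRF2, measured 91.3, 419, 362 and 243 FPKM in control 1 to 4 and 34.2, 32.3, 25.8 and 32.1 FPKM in exercise 1 to 4. The exercise libraries lay close together and below all control libraries (log2 fold change -2.92 ± 0.68, limma adjusted p = 0.0133), and the call was lost without control 4 or exercise 3 (up to 0.0517). The other was Nqo1, a quinone reductase, named after its values were seen, at 0 to 7.59 FPKM in control and 0 in exercise libraries (limma adjusted p = 0.0424), which was called in 1 of the 8 fits without a single library, that without control 2.

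Of the genes for repair of oxidised protein and stress adaptors, 6 of 11 were tested, 2 were called lower and 0 higher. Selenow, a small muscle selenoprotein, measured 512, 302, 333 and 314 FPKM in control 1 to 4 and 78.8, 79.2, 68.6 and 123 FPKM in exercise 1 to 4 (log2 fold change -2.05 ± 0.56, limma adjusted p = 0.0250). Selenop, the secreted selenium carrier, fell by 1.95 on the log2 scale (limma adjusted p = 0.0400). Both calls were lost without control 3 or 4 or exercise 1, 2 or 3, and that of Selenop also without control 2 (limma adjusted p up to 0.0802 and 0.112). Msrb1, a methionine sulfoxide reductase and the highest gene of the list, ranged from 1.56 to 1649 FPKM in control libraries and was not called (limma adjusted p = 0.202).

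Of 4 genes that supply metal to the dismutases, 1 was tested. Atox1, a copper chaperone, measured 127, 3.02, 1042 and 722 FPKM in control 1 to 4 and 17.7, 3.48, 1.67 and 0 FPKM in exercise 1 to 4, and was called lower although control 2 overlapped the exercise libraries (log2 fold change -5.18 ± 1.70, limma adjusted p = 0.0409). The call was kept in 1 of the 8 fits without a single library, that without control 2 (0.00732, up to 0.116 in the others). Ccs, the chaperone that loads copper into Sod1, had no read and is named for its role. Of 13 sources of superoxide and peroxide, 2 were tested. Rac1, a GTPase that activates NADPH oxidases, measured 14.3, 56.9, 40.6 and 35.2 FPKM in control 1 to 4 and 0.798, 0.139, 1.003 and 0 FPKM in exercise 1 to 4 (log2 fold change -4.58 ± 0.68, limma adjusted p = 0.00190). Maob, a mitochondrial amine oxidase that releases hydrogen peroxide, rose from 2.19, 0, 0 and 0.990 FPKM in control 1 to 4 to 9.65, 8.31, 6.14 and 2.49 FPKM in exercise 1 to 4, the last from 2 reads (log2 fold change 2.15 ± 0.68, limma adjusted p = 0.0373). Control 1 and 4 held 14 and 11 Maob reads, so as a share of all reads exercise 4 lay below both. The call of Maob was lost without control 2, 3 or 4 or exercise 1, 2 or 3 (limma adjusted p up to 0.0934).

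**Figure D4:**
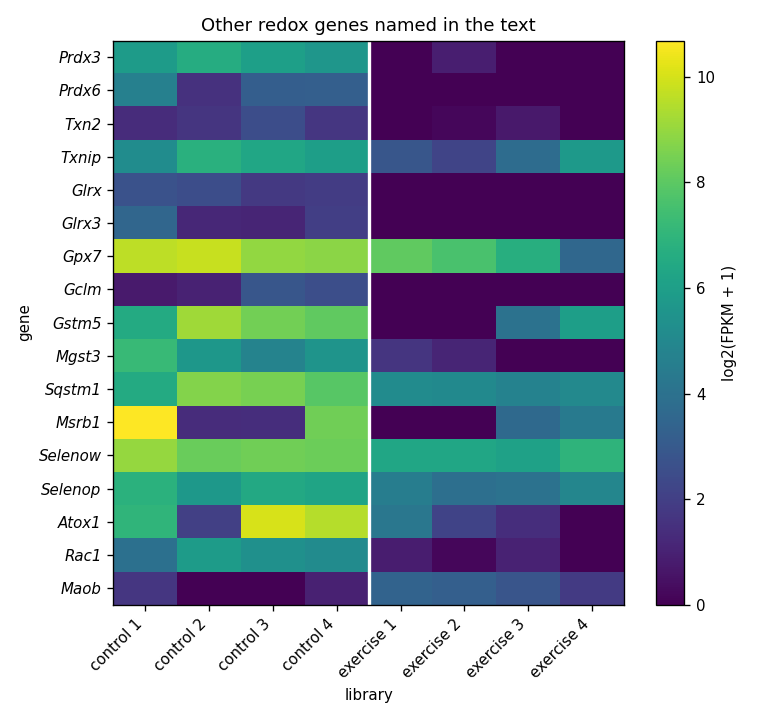
Level of the other redox genes chosen by the rule on called genes without overlap and the highest gene of each list, as log2(FPKM + 1) by colour, in 4 control and 4 exercise libraries (columns), with a white line between the groups. Prdx3, Mgst3 and Rac1 are near 0 in all exercise libraries and above it in all control libraries. Maob is higher in every exercise library than in any control library, though exercise 4 (2.49 FPKM) lies close to control 1 (2.19 FPKM).

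The calls of the antioxidant enzyme genes depended on scale and filter. Sod1 was called in 6 of 17 other settings, with log2 fold changes of -7.83 to -4.09 and limma adjusted p of 0.00328 to 0.471, and Prdx5 in 4 of 17 (-5.24 to -1.98, adjusted p of 0.0102 to 0.472). Sod2 was called lower in 4 of 18 and Gpx1 higher in 1 of 18, the fit without control 1. The filter of 1 FPKM in 4 libraries left Sod1 and Prdx5 untested, so it bears on neither call. These 4 genes kept their direction in every setting run, and Cat did in all 16 of its own. The direction of Gpx3, Gpx4, Prdx1 and Txn1 turned in at least 1 setting each. Quantile normalization moved the median of all genes from -1.42 to -0.44, and there Sod1 was the 1 gene of the 9 called.

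**Figure D5:**
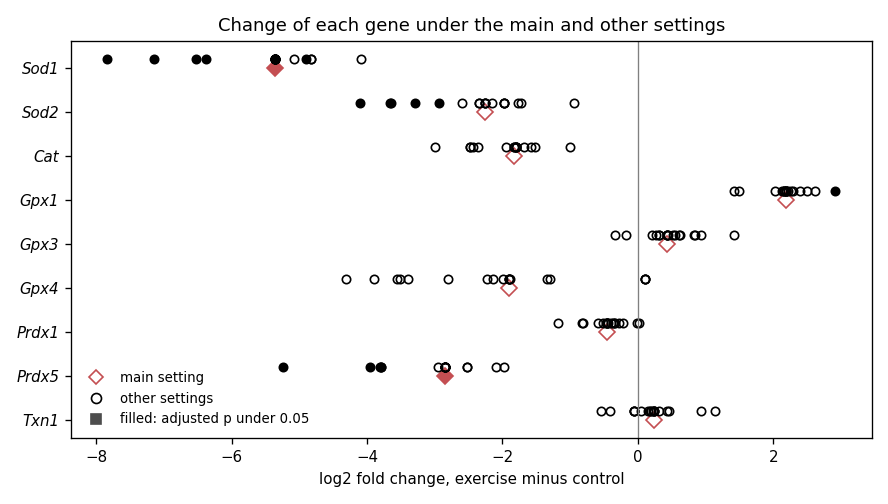
Log2 fold change of exercise against control (horizontal axis) for the 9 genes tested, with red diamonds for the main setting, circles for the other 16 to 18 settings of each gene and filled symbols for an adjusted p under 0.05. Sod1, Sod2, Cat and Prdx5 stay below 0 and Gpx1 above 0 in every setting, and the other 4 genes lie on both sides of 0.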

How the data were processed

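The authors deposited a table of FPKM per gene and library. The submitters' processing notes name Bowtie 0.12.9, Cufflinks 2.1.1, HTSeq and mm10, and the study's methods name DESeq2. FPKM times gene length gave whole reads (tolerance 0.001) for 100% of values, and the library size in FPKM equalled a median-of-ratios size factor times the geometric mean of the read totals. Of the identifiers, 99.7% are in GENCODE for GRCm38 and 95.2% of these have the same coordinates (not Sod1 and Sod2). Coordinates are the file's.

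Rows sharing a symbol were summed (101 fewer). limma 3.58.1 (R 4.3.3; eBayes with trend) was run on log2(FPKM + 1) of genes with a mean FPKM of 1 or more, with voom on the recovered reads as the count-based alternative. Single genes had exact two-sided permutation tests (Python 3.11.15, numpy 2.4.6, pandas 2.3.3, scipy 1.17.1). The limma script was tested on simulated data. A count of 0 was taken to allow 3 reads. Depth was 1011737 to 3013354 reads per library, and its intervals cover counting error only. Replicate numbers did not pair the samples. The rule for named redox genes took those called without overlap and the highest of each list, and Nqo1, Gsr, Gstm1 and Ccs were named outside it. All 134 list genes were found (1 renamed through RefSeq). Members and lists were chosen with earlier results of these data known. Alternatives were another pseudocount (0.1), filters, scalings, voom, a replicate block, averaging exercise 1 and 2, and leaving libraries out.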

Additional observations from a re-analysis of the deposited data

Results flagged for a closer look

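Of the 10 genes in 2 groups, 17 sets of 4 libraries had any spread, and in 2 of them 1 library stood apart by Dixon's ratio (for continuous values chance does so for about 1 set in 20, a rate that does not hold for sets made mostly of 0). Sod3 in control 1 stood at 0.77 on the log2(FPKM + 1) scale, from 6 reads, with the other control libraries at 0 to 0.0937 and a gap of 0.878 of the range. Cat in exercise 3 stood at 0.428, from 1 read, with the other exercise libraries at 0, so that this 1 read alone sets the ratio at its largest value and carries no further information.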

How the results depend on the processing

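Over 13 results and 18 settings, 157 of 230 recomputed values kept their direction and side of the threshold, or, for counts, stayed within 1.5 times the reported count, or, for the median of the antioxidant enzymes, within the wide spread between libraries (2.19 on the log2 scale, while it came as near to 0 as -0.11). In the reported setting 2 of the 9 antioxidant enzyme genes, 18 other redox genes and 1541 of all genes were called. Without a filter these were 0, 8 and 840 (limma, with 4, 29 and 3286 at an unadjusted p under 0.05), and with quantile normalization 1, 8 and 941, of which 375 were lower and 566 higher. The counts rose to 3, 23 and 1857 with a pseudocount of 0.1. At equal FPKM sums the counts were 3, 20 and 1792, and at equal sums outside the mitochondrial genome 3, 21 and 1796. With exercise 1 and 2 averaged they were 0, 6 and 596 (2, 20 and 1887 at an unadjusted limma p under 0.05). After removing control 4 and exercise 3 too, which leaves fewer libraries, they were 0, 0 and 0 (0, 5 and 469 unadjusted). The filter of 1 FPKM in 4 libraries left Sod1, Cat and Prdx5 untested and called 0 of the other 6 antioxidant enzyme genes (2 unadjusted). Of all genes it called 1121 of 2669 (1313 unadjusted). Voom called 0 antioxidant enzyme genes (3 unadjusted) and 1242 of all 4328 genes (1922 unadjusted). The replicate block called 1 antioxidant enzyme gene (Sod1, while Prdx5 had limma adjusted p = 0.0539). The same-number correlations of -0.017 to 0.039 did not pair the libraries, and under the replicate block 12 other redox genes and 1059 of all genes were called. Leaving out single libraries gave 0 to 2 antioxidant enzyme genes, 5 to 18 other redox genes and 527 to 1899 of all genes. The lowest counts of the last 2 came without control 4 and without exercise 3 in turn, and Gpx1 became the 1 called gene without control 1, and Sod2 without exercise 4. The direction turned for Gpx3 (-0.18) and Txn1 (-0.41) with equal FPKM sums, for Prdx1 (0.024) with quantile normalization, for Gpx4 (0.11) and Txn1 (-0.063) with exercise 1 and 2 averaged, and for Txn1 (-0.55) after removing control 4 and exercise 3 too. Without single libraries Gpx3 ranged from -0.34 to 0.94, Gpx4 from -4.31 to 0.11 and Txn1 from -0.063 to 0.93. The cause was not tested. Depth limits the genes at 0, since 3 reads of Sod1 amount to 16.1 FPKM in exercise 4.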
